A study of Homo sapiens with 2 samples.

Results

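The genes described here are the DDX and DHX RNA helicases, found as protein-coding genes whose symbol is DDX or DHX followed by a digit, with genes on chromosomes X and Y left out. The array's probe table held 46 such genes, 30 DDX and 16 DHX, of 11915 protein-coding genes in all. Family members without a named cluster, such as DDX18, DDX27, DDX39A and DDX39B, are not analysed here. Levels were measured in MDA-MB-231, an established human breast cancer cell line, on 2 arrays. The array of compound 1, which the study directs at the microRNA miR-544, is set against that of a miR-544 antagomir, a modified oligonucleotide that binds and inhibits the same microRNA. Both treatments began 24 hours before 5 days of hypoxia at an oxygen level below 1%, and each treatment has 1 array of pooled RNA. The design text speaks of 3 samples before pooling, without saying whether that number holds for each treatment. There is therefore no replicate error and no p-value, and no untreated or normoxic array was analysed here. Treatment, pool and hybridisation cannot be told apart.

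RNA helicases use ATP to pull apart short RNA duplexes or to strip proteins from RNA. DEAD-box proteins, mostly named DDX, open duplexes locally, while DEAH-box proteins, mostly named DHX, move along a strand. They serve at nearly every step in the life of an RNA, from transcription through splicing, export and translation to decay, and many work in the nucleolus on ribosome assembly. DDX5 and DDX17 are also cofactors of the Drosha complex, which cuts microRNA precursors. The mature form of the microRNA that both treatments address is shown to place the treatments, with its seed, bases 2 to 8, in capitals. Its sequence is that of RefSeq (GRCh38.p14, chr14:101048712-101048733, plus strand).
hsa-miR-544a: aUUCUGCAuuuuuagcaaguuc

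Measured helicase genes were mostly slightly lower on the compound 1 array. None of them differed by as much as 1.5-fold as deposited, a size that few protein-coding genes reached. A gene counted as measured when the higher of its 2 array values reached a log2 level of 5.60, the 50th percentile of all probe clusters. Of the 46 helicases 43 were measured, 27 DDX and 16 DHX. Of these, 40 were lower on the compound 1 array and 3 higher. Among all 9583 measured protein-coding genes 58.9% were lower. The median log2 difference, compound 1 minus antagomir, was -0.12 for the helicases and -0.041 for all measured protein-coding genes. Past 1.5-fold there were 0 helicases in either direction, where 0.365% of protein-coding genes were lower and 0.167% higher by that much. Past 1.2-fold, 7 helicases were lower and 0 higher, where 9.12% of protein-coding genes were lower and 5.22% higher. The 7 were DDX59, DDX50, DDX46, DDX23, DDX56, DHX16 and DDX20. Of these, DDX59 entered through its antagomir value alone, and 6 remain without it.

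**Figure D1:**
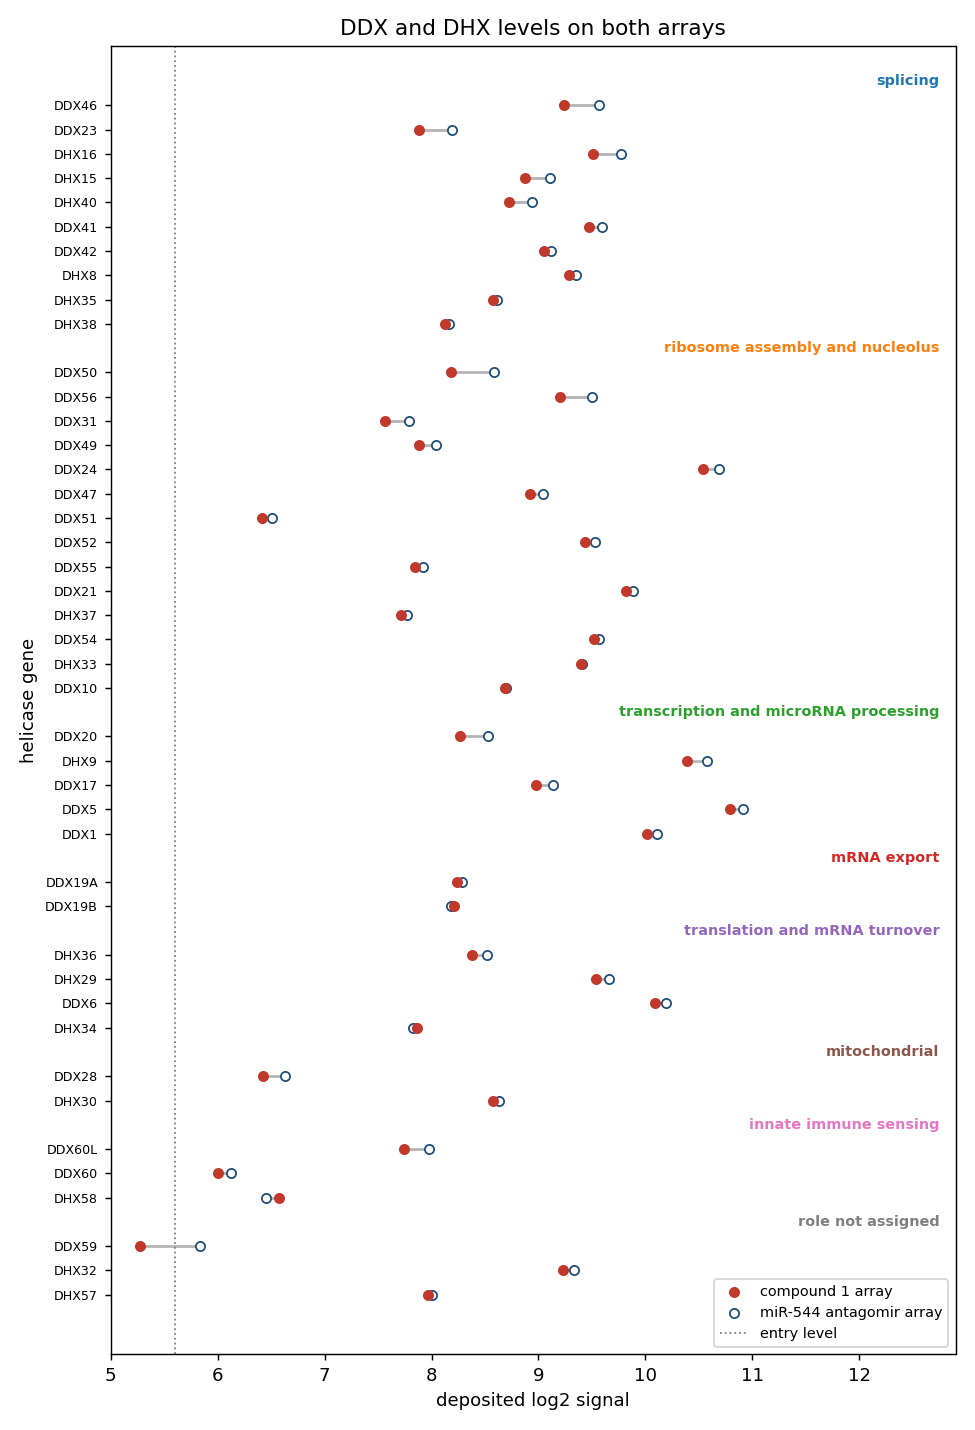
Deposited log2 signal of the 43 measured DDX and DHX genes, grouped by role and ordered by difference within each role. Filled points are the compound 1 array and open points the miR-544 antagomir array, with 1 array each. The filled point lies left of the open one for 40 genes, and DDX59 crosses the entry level of 5.60.

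Lower values were also the more frequent ones among other genes of like signal. In bins of mean level, 20 in all, the median difference of protein-coding genes was 0.065 in the lowest bin and -0.071 in the highest, with extremes of 0.073 and -0.087 in between, and helicase signals lay mostly in the upper bins. In the bins that hold the helicases, on average 67.3% of protein-coding genes were lower. Set against the median of its own bin, a helicase was below it in 27 of 43 cases, where 49.9% of all protein-coding genes were. The median distance from the bin median was -0.041. More than 1 robust SD (a median absolute deviation scaled to match an SD) below the bin median lay 12 helicases, or 27.9%, against 16.4% of protein-coding genes. More than 1 robust SD above it lay 0 helicases, against 15.4% of protein-coding genes. The 12 were DDX59, DDX50, DDX46, DDX23, DDX56, DHX16, DDX20, DDX60L, DHX15, DHX40, DDX28 and DHX9, or 11 of 42 without DDX59. Centring the arrays made 41 of the 43 helicases lower, where 66.3% of protein-coding genes were. Following quantile normalization 29 of the 43 helicases were lower, where 49.5% of protein-coding genes were, and after cyclic loess 30, where 51.5% were. Past 1.2-fold the helicases that were lower numbered 8 under centring (12% of protein-coding genes), 2 under quantile normalization (6.38%) and 2 under cyclic loess (7.2%). The count more than 1 robust SD below the bin median stayed at 12 (16.3% of protein-coding genes) under all 3, which shows no stability, since centring cannot move it and the bin median takes up a shift that depends on level.

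**Figure D2:**
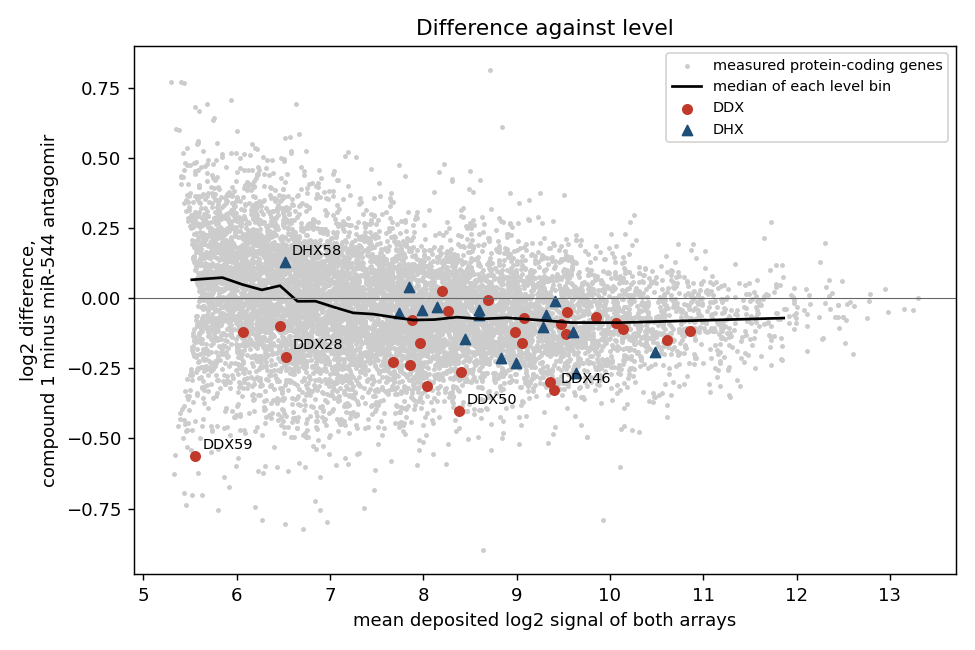
Log2 difference, compound 1 minus miR-544 antagomir, against the mean log2 signal of both arrays for 9583 measured protein-coding genes (grey), 27 DDX genes (red circles) and 16 DHX genes (blue triangles). The black line joins the median differences of the 20 level bins, which lie between 0.073 and -0.087, and 27 of the 43 helicases lie below their bin's median.

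The DDX genes had a median difference of -0.12, with 26 of 27 lower, where 66.6% of genes in their level bins were. The DHX genes had one of -0.061, with 14 of 16 lower, where 68.4% of genes in their level bins were. Relative to their level bins, 20 of 27 DDX genes and 7 of 16 DHX genes were below the median. Of all protein-coding genes 49.9% were. After quantile normalization the medians were -0.067 for DDX and 0.0036 for DHX, with 21 of 27 and 8 of 16 genes lower. Among all protein-coding genes 49.5% were then lower. After cyclic loess the medians were -0.075 and -0.0028, with 22 of 27 and 8 of 16 lower, where 51.5% of protein-coding genes were. The difference between both subfamilies was not tested.

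**Figure D3:**
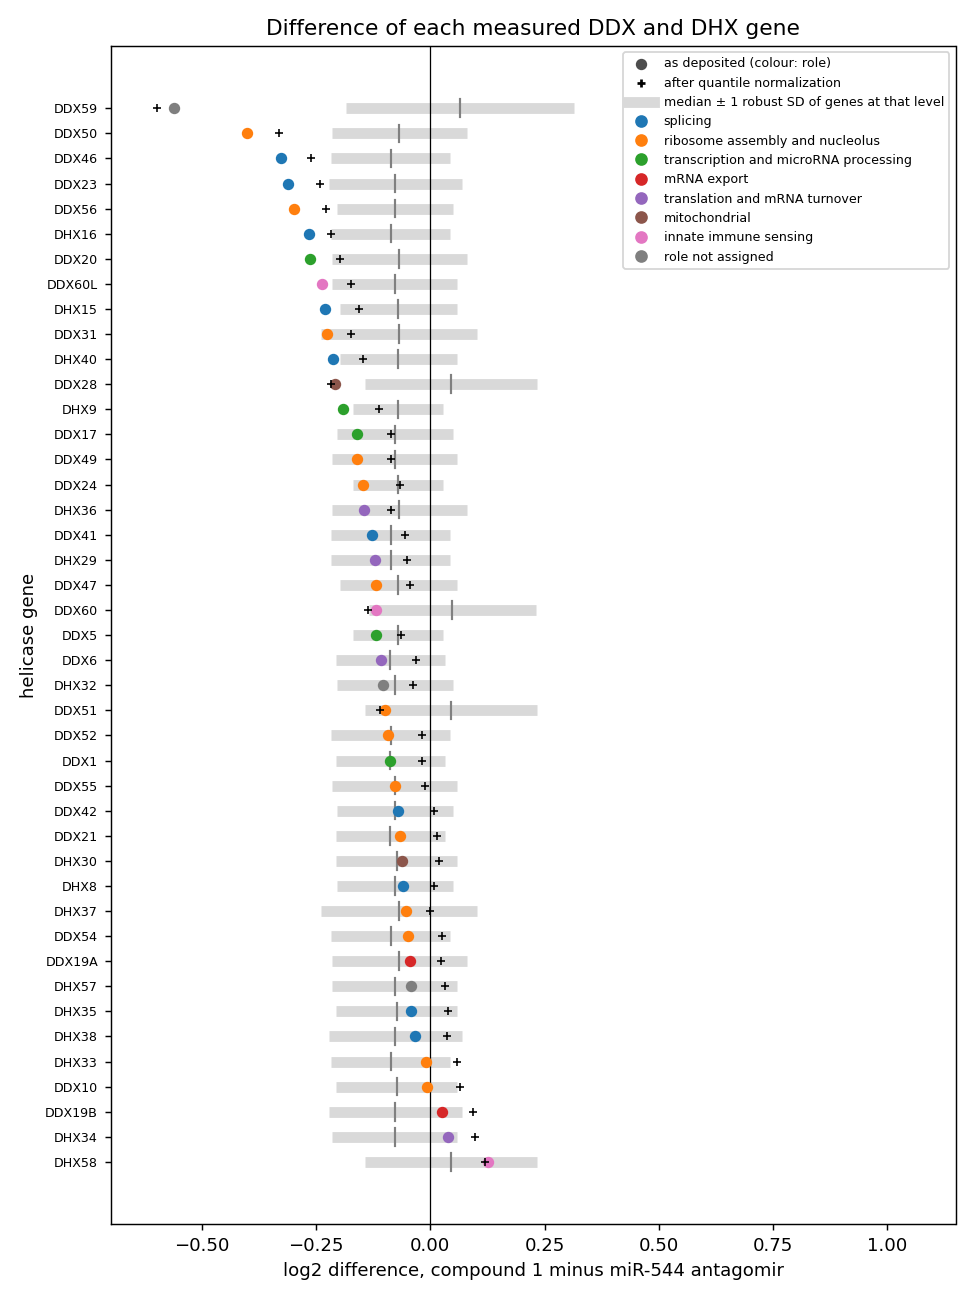
Log2 difference, compound 1 minus miR-544 antagomir, of each of the 43 measured helicase genes, coloured by role. Grey bars span the median ± 1 robust SD of protein-coding genes in the same level bin, and crosses give the value after quantile normalization. DDX59 is lowest at -0.56 and DHX58 highest at 0.13, and 12 points lie left of their grey bar.

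Splicing helicases, which remodel the spliceosome between its successive states, held several of the larger differences. All 10 measured members of this role were lower on the compound 1 array (median -0.17), where on average 70.5% of protein-coding genes in their level bins were. Below the median of their level bin lay 6 of the 10. Of the 10, 5 lay more than 1 robust SD below their bin, as did 16.4% of protein-coding genes. DDX46, which acts on the U2 particle when the branch site is chosen, was at a log2 level of 9.24 with compound 1 and 9.56 with the antagomir, a 1.26-fold difference. DDX23, which helps exchange the U1 for the U6 particle at the 5′ splice site, was at 7.88 with compound 1 and 8.19 with the antagomir (1.24-fold). Both lay more than 1 robust SD (0.13 and 0.14) below the median of their level bin. DHX16, which activates the spliceosome for the first step of splicing, was at 9.51 with compound 1 and 9.77 with the antagomir. It is the only helicase here with more than 1 cluster. Its 8 clusters hold 3 distinct pairs of values, with differences of -0.27, -0.27 and -0.29, so they are not 8 separate measurements. DHX16 lies in the major histocompatibility region, of which genome assemblies carry several haplotype copies.

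DHX15, which takes spliceosomes apart and also serves ribosome assembly, was at 8.87 with compound 1 and 9.11 with the antagomir. DHX40 was at 8.72 with compound 1 and 8.94 with the antagomir. The other members of the role lay within 1 robust SD of their bin median. DDX41, a helicase altered in inherited myeloid neoplasms, was at 9.47 with compound 1 and 9.60 with the antagomir. DDX42, a helicase of the U2 particle, had a difference of -0.072. DHX8, which releases the finished mRNA, had a difference of -0.061. DHX35 was at -0.041, and DHX38, which remodels the spliceosome before the second step, was highest of the role at -0.033. The group median was -0.10 after either quantile normalization or cyclic loess, and DHX35, DHX38 and DHX8 turned above 0 under both, DDX42 after quantile normalization alone.

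Of 14 measured helicases of ribosome assembly and the nucleolus, all were lower as deposited (median -0.096), where 68.4% of genes in their level bins were. Below their bin median lay 8 of the 14. Of the 14, 2 lay more than 1 robust SD below their level bin, a share near the 16.4% of all protein-coding genes. DDX50, a nucleolar helicase, had the lowest difference among the helicases above the entry level on both arrays, at 8.18 with compound 1 and 8.59 with the antagomir (1.32-fold). Its paralog and chromosome 10 neighbour DDX21, which works in ribosomal RNA transcription and processing, was at 9.82 with compound 1 and 9.89 with the antagomir. The log2 differences of these close relatives thus lay 0.33 apart. DDX56, a nucleolar helicase of large subunit assembly, was at 9.21 with compound 1 and 9.50 with the antagomir (1.23-fold). DDX31, a nucleolar helicase, was at 7.56 with compound 1 and 7.79 with the antagomir, within 1 robust SD (0.17) of its bin.

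DDX49 differed by -0.16, DDX24 by -0.15, DDX47 by -0.12, DDX51 by -0.098, DDX52 by -0.093 and DDX55 by -0.078. DHX37, a helicase of small subunit assembly, differed by -0.053, and DDX54 by -0.049. DHX33, a nucleolar helicase, and DDX10 were nearest to 0. DHX33 was at 9.40 with compound 1 and 9.41 with the antagomir, and DDX10 at 8.69 on both. Apart from DDX50 and DDX56, each helicase of this role lay within 1 robust SD of its bin median. Quantile normalization put its median at -0.032 and cyclic loess at -0.039, and DDX10, DDX21, DDX54 and DHX33 were above 0 under both.

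Helicases listed for transcription and microRNA processing were lower in 5 of 5 cases, with -0.16 as their median (-0.086 after quantile normalization), where 74.1% of genes in their level bins were lower. All 5 lay below their bin median, though DDX1 was practically at it (-0.0012 from it). DDX20, part of the SMN complex that loads Sm proteins onto small nuclear RNAs, was at 8.27 with compound 1 and 8.53 with the antagomir (-0.26). DHX9, which unwinds RNA and DNA structures in the nucleus, was at 10.39 with compound 1 and 10.58 with the antagomir, which is -1.22 robust SDs from its bin median. The paralogs DDX5 and DDX17 differed by similar amounts. DDX5 was at 10.79 with compound 1 and 10.91 with the antagomir, and DDX17 at 8.97 with compound 1 and 9.13 with the antagomir. Both were within the spread of genes at their level. DDX1, a helicase of the tRNA ligase complex, had a difference of -0.089.

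The mRNA export helicases DDX19A and DDX19B, which strip proteins from mRNA at the nuclear pore, differed little. They are chromosome 16 neighbours and close in sequence, and signal shared between their probes was not tested. DDX19A was at 8.24 with compound 1 and 8.28 with the antagomir. DDX19B was at 8.21 with compound 1 and 8.19 with the antagomir, 1 of the 3 helicases that were higher, and turned to -0.0049 after centring. Among helicases of translation and mRNA turnover, DHX36, which unwinds G-quadruplexes, was at 8.38 with compound 1 and 8.52 with the antagomir. DHX29, which helps ribosomes scan structured leaders, was at 9.54 with compound 1 and 9.66 with the antagomir. DDX6, a helicase of P-bodies that represses and destabilises mRNA, was at 10.09 with compound 1 and 10.20 with the antagomir. DHX34, of nonsense-mediated decay, was higher, at 7.87 with compound 1 and 7.83 with the antagomir. In these 2 roles 0 of 6 measured helicases lay beyond 1 robust SD of their bin. Of all protein-coding genes 16.4% lay that far below and 15.4% that far above.

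Of both mitochondrial helicases, DDX28, of the mitochondrial large ribosomal subunit, was the lower, at 6.42 with compound 1 and 6.63 with the antagomir. Genes at its level were on balance higher (bin median 0.044), and DDX28 lay at -1.34 robust SDs from that median. DHX30, of mitochondrial RNA granules, was at 8.57 with compound 1 and 8.63 with the antagomir.

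The helicases listed under innate immune sensing did not share a direction. DHX58, which encodes LGP2, a regulator of the RIG-I-like receptors, was at 6.58 with compound 1 and 6.45 with the antagomir, the highest difference of any measured helicase (0.13), and within 1 robust SD (0.19) of its bin. The interferon-inducible DDX60 and its chromosome 4 neighbour DDX60L were lower. DDX60 was at 6.01 with compound 1 and 6.12 with the antagomir, and DDX60L at 7.74 with compound 1 and 7.98 with the antagomir. RIGI, the RNA sensor once named DDX58, falls outside the symbol rule and was at 9.55 with compound 1 and 9.51 with the antagomir.

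DDX59, a gene mutated in an orofaciodigital syndrome, had the largest difference of any measured helicase, at 5.28 with compound 1 and 5.84 with the antagomir (1.48-fold). It entered through its antagomir value alone, since 5.28 is under the entry level, and the spread of genes at its level was wide (robust SD 0.25). Without DDX59 the helicase median was -0.11, with 39 of 42 lower. Its difference passed 1.5-fold after each of the 3 scalings, at -0.59 after centring, -0.60 after quantile normalization and -0.62 after cyclic loess. DHX32 (-0.10) and DHX57 (-0.043), whose roles were not assigned, lay within the spread of genes at their level. The remaining 3 genes reached the entry level on neither array and take no part in the counts. The germline helicase DDX4 was at 3.88 with compound 1 and 3.20 with the antagomir. The testis helicase DDX25 was at 3.73 with compound 1 and 3.68 with the antagomir. DDX43, expressed in testis and some tumours, was at 3.55 with compound 1 and 3.78 with the antagomir.

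**Figure D4:**
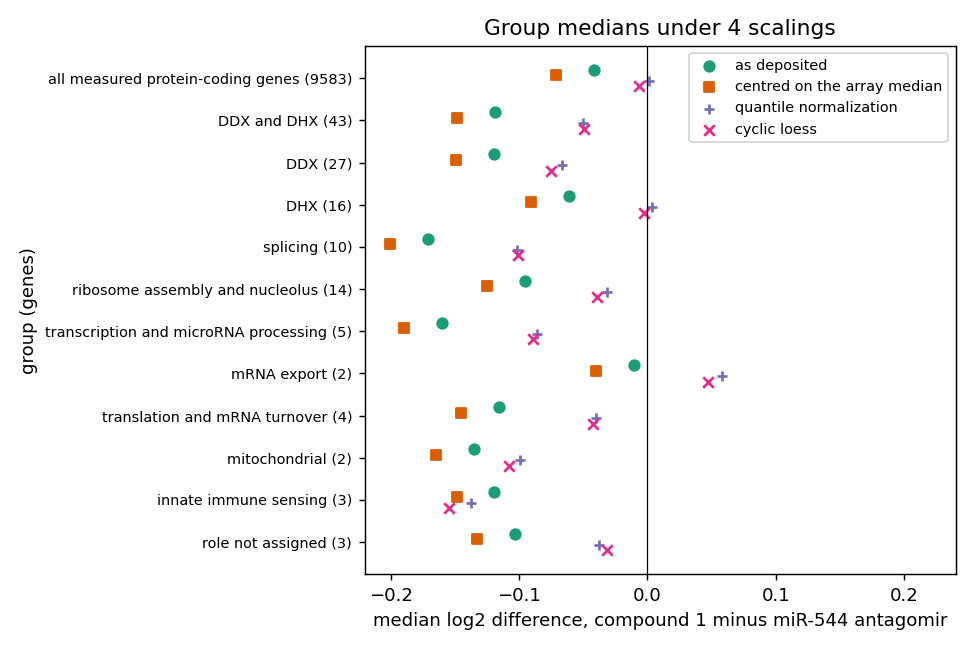
Median log2 difference, compound 1 minus miR-544 antagomir, of all measured protein-coding genes, the helicases, their subfamilies and the role groups, each with its number of genes, under 4 scalings. Splicing helicases move from -0.17 as deposited to -0.10 after quantile normalization or cyclic loess, and mRNA export helicases turn above 0.

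Promoters were searched for short sequence motifs, and none of these stood in most helicase promoters. The shares of other promoters given beside them are not matched for signal level. RefSeq promoters (GRCh38.p14, 250 bases before to 50 after the first listed start) were found for 39 of the 43 measured helicases; DDX49, DDX52, DHX33 and DHX58 had no entry. The letters CCGGAAG, the core bound by ETS factors, stood on either strand in 18 of 39 helicase promoters (46.2%), against 17.7% of 7869 promoters of measured protein-coding genes and 10.7% of all 27305 promoters in the table. Helicases with these letters had a median difference of -0.080 (17 of 18 lower) and those without one of -0.13 (20 of 21 lower). CACGTG, the E-box, stood in 8 helicase promoters (20.5%), against 9.79% of measured protein-coding genes and 7.43% of all. ACGTG, the core of the hypoxia response element, which every CACGTG also holds, stood in 13 (33.3%), against 25.8% and 21.6%. GCCAAT, the CCAAT box, stood in 10 (25.6%), against 19.2% and 15.4%. A match describes these letters and is not a bound site.

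The windows below show the letters CCGGAAG, or CTTCCGG where they lie on the other strand, in capitals. They are the 4 helicases of lowest difference that hold them before the start, and DDX21 as the neighbour and paralog of DDX50. In DDX50 and DDX21 the first capital lies 48 and 60 bases before the start, in DDX46 47 bases and in DHX16 12 bases. DDX56 has 2 in its window and 3 before its start. The windows come from GRCh38.p14 at chr10:68901241-68901300 (plus) for DDX50, chr5:134758706-134758765 (plus) for DDX46, chr7:44573972-44574031 (minus) for DDX56, chr6:30673007-30673066 (minus) for DHX16 and chr10:68956084-68956143 (plus) for DDX21.
DDX50: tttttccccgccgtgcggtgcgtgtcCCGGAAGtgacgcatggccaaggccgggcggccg
DDX46: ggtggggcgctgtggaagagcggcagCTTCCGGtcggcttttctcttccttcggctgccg
DDX56: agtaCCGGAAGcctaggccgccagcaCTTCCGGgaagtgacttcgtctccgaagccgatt
DHX16: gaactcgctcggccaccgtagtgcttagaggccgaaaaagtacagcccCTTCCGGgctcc
DDX21: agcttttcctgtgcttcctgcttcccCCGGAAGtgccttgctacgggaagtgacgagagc
The neighbours DDX50 and DDX21 both carry the letters, while their differences were -0.40 and -0.068.

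Helicases outside the symbol rule and the partners of DEAD-box and DEAH-box proteins gave medians near that of the DDX and DHX genes. Listed genes not counted as measured had no named cluster or stayed under the entry level, and these cases were not separated. Of 23 other RNA helicases 11 were measured, 8 of them lower (median -0.12), a share near the 71.2% of genes in their level bins. Past 1.2-fold 0 of the 11 were lower, where 9.12% of protein-coding genes were. Of the 11, 0 lay more than 1 robust SD below their level bin and 1 above it, against 16.4% and 15.4% of protein-coding genes. HELZ differed by -0.20, and AQR, a spliceosomal helicase, by -0.20. UPF1, RIGI and the interferon-inducible HELZ2 were the 3 higher ones, at 0.011, 0.036 and 0.17. Of 18 DNA helicases 6 were measured, 5 of them lower (median -0.10), where 63.4% of genes in their level bins were. Of the 6, 2 lay more than 1 robust SD below their level bin and 0 above it, against 16.4% and 15.4% of protein-coding genes. PIF1 was lowest at -0.32, followed by BRIP1 at -0.28, while RECQL4 and the mitochondrial replicative helicase TWNK were highest at -0.013 and 0.050.

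G-patch proteins switch on DHX15 and related helicases. Of 23 listed symbols, which hold GPATCH11 also under its former name CCDC75, 17 were measured. Of these 13 were lower (median -0.11), where 63.6% of genes in their level bins were. Of the 17, 3 lay more than 1 robust SD below their level bin, a share near the 16.4% of all protein-coding genes. More than 1 robust SD above it lay 2, against 15.4% of protein-coding genes. GPKOW, a G-patch partner of DHX16, was at 8.89 with compound 1 and 9.21 with the antagomir. Both partners were lower, as were 73.1% of genes in the level bin of GPKOW and 72.4% in that of DHX16. The cap methyltransferase CMTR1, which binds DHX15, differed by -0.30. GPATCH4 and GPATCH3 were highest at 0.13 and 0.28. Of 28 listed activators and partners of DEAD-box proteins 19 were measured and 18 were lower (median -0.13), where 65.6% of genes in their level bins were. Of the 19, 8 lay more than 1 robust SD below their level bin, as did 16.4% of all protein-coding genes. GEMIN2, which works beside DDX20 in the SMN complex, was lowest at -0.34, with 5.41 with compound 1 and 5.75 with the antagomir. GEMIN2 and MAGOHB, of the exon junction complex (5.57 with compound 1 and 5.87 with the antagomir), entered through their antagomir values alone. Without both, 16 of 17 partners were lower (median -0.12), where 68.9% of genes in their level bins were. Of these 17 partners, 6 lay more than 1 robust SD below their bin, as did 16.4% of all protein-coding genes. DGCR8, the partner of Drosha, was at 6.83 with compound 1 and 7.14 with the antagomir (-0.31). EIF4ENIF1, which binds DDX6, and EDC3, a decapping factor, were highest at -0.017 and 0.051. None of these lists was tested against another.

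Markers of the line were present. Of 6 listed genes of mesenchymal-like breast cancer cells 4 had clusters, VIM, CD44, AXL and MSN. They ranged from 9.04 to 12.77 with compound 1 and from 9.08 to 12.78 with the antagomir, with a median difference of -0.026. Of 6 epithelial markers 5 had clusters, from 4.49 to 8.78 with compound 1 and from 4.52 to 9.04 with the antagomir, with a median difference of 0.082. Of these 3 reached the entry level, KRT19 at -0.26, EPCAM at 0.15 and GATA3 at 0.17. PECAM1, the endothelial marker with a cluster, was under the entry level, at 5.57 with compound 1 and 5.32 with the antagomir. The listed leukocyte and fibroblast markers had no named cluster, so they were not analysed here.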

How the data were processed

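The deposited values, 1 for each of 53617 transcript clusters on each array, have a scale whose range (0.37 to 14.20 for compound 1 and 0.61 to 14.19 for the antagomir) is that of log2 signal. How the authors corrected and normalized the deposited log2 values, and their log base, is not stated in the labels, so folds assume base 2. Per the labels' protocols, 5 µg of total RNA gave the biotin-labelled cRNA. The title names another array type than the probe numbers do. Of the clusters, 16098 have a gene symbol in the platform table, and gene types and chromosomes came from RefSeq (GRCh38.p14), with 0 symbols updated.

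A cluster entered when its higher value reached the 50th percentile of mean levels, and the entering cluster of highest mean stood for its gene. Differences are compound 1 minus antagomir. Level bins are 20 equal groups of measured protein-coding genes. The helicases, their role groups and the other lists were chosen with earlier results of these data known. By rule, all measured members are named, and of each other list the 2 lowest and 2 highest differences; UPF1 was added to complete a count, and MAGOHB after its values were seen. Protein sequences were not used here, so the planned grouping by helicase motif was left out. Only the subtraction of bin medians was tested on simulated data. Differences were shuffled within level bins and randomly picked genes shifted by a known amount, which does not check the filter, the scalings or the promoter search. Python 3.11.15, numpy 2.4.6, pandas 2.3.3, matplotlib 3.10.9, R 4.3.3 and limma 3.58.1 (quantile and cyclic loess normalization) were used. The number of arrays limits the precision.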

Additional observations from a re-analysis of the deposited data

How the results depend on the processing

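Under quantile normalization and cyclic loess the difference of each measured helicase moved by less than 1 robust SD of genes at its level. That margin is wide, since the median robust SD of their bins was 0.13 and the helicase median difference -0.12. Filter and cluster choice could move only DHX16, the only helicase with more than 1 cluster, and centring moves every gene by the same amount. Those settings therefore show no stability of single genes. The scaling decided how many helicases were lower. The median of all measured protein-coding genes was -0.041 as deposited, -0.071 after centring, 0.0015 after quantile normalization and -0.0063 after cyclic loess. Quantile normalization put the helicase median at -0.050 and cyclic loess at -0.049, and 29 of the 40 lower helicases were lower under all 3 scalings. Helicases turned sign in 1, 11 and 10 cases after centring, quantile normalization and cyclic loess. The role medians under quantile normalization and cyclic loess were -0.10 and -0.10 for splicing, and -0.032 and -0.039 for ribosome assembly and nucleolus. They were 0.058 and 0.047 for mRNA export, and -0.040 and -0.042 for translation and mRNA turnover. Transcription and microRNA processing had -0.086 and -0.089, and helicases with no assigned role -0.038 and -0.031. Innate immune sensing, at -0.12 as deposited, had -0.14 and -0.15. Mitochondrial helicases, at -0.13 as deposited, had -0.099 and -0.11. The cause of these moves was not tested. With entry at the 75th percentile 38 helicases remained and 36 were lower (68.4% of protein-coding genes), and the innate immune and mitochondrial roles, with 1 gene left in each, were at -0.24 and -0.062. The count past 1.5-fold was 0, and 1 (DDX59) after each of the 3 scalings, 1 (DDX4, higher) with no filter, and 7 with the threshold at 1.2-fold. The 7 lower past 1.2-fold became 8 under centring and 2, DDX59 and DDX50, under quantile normalization or cyclic loess. Without the paralogs DDX5, DDX17, DDX19A, DDX19B, DDX21, DDX50, DDX60 and DDX60L, left out after seeing the data, 33 of 35 were lower (median -0.11). The planned omission by protein identity was not run. No paired analysis was possible because there is only 1 array of either treatment.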
